A study of Mus musculus with 8 samples.

Results

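Immediate early genes are switched on within minutes of a stimulus such as serum, growth factors or cyclic AMP, without new protein synthesis, and most of their transcripts are degraded soon after. The 10 studied here were Fos, Fosb, Fosl1 and Fosl2, the 4 proteins of the FOS family, Jun and Junb, their partners in the transcription factor AP-1, Egr1 and Egr2, zinc finger transcription factors, Ier2, a nuclear early response protein, and Zfp36, which encodes tristetraprolin, a protein that binds AU-rich messenger RNAs and speeds their decay. In cultured fibroblasts these genes are known for their response to serum, and in preadipocytes several of them are induced in the first hours of hormone treatment. The members were picked by name, and probes were assigned to them through their RefSeq accession. All 10 were found among 26460 genes and unnamed transcripts tested, 9 of them by 1 probe and Fosl2 by 2, and all 11 probes were well above background on all 8 arrays.

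The cells were 3T3-L1, a mouse preadipocyte line. In sh8 cells a short hairpin RNA (slincRAD-shRNA-8) against the long noncoding RNA slincRAD had been stably introduced. WT cells were unmodified 3T3-L1, and no line with a control hairpin was among the samples, so hairpin and line history cannot be told apart. Whether sh8 is a single clone is not stated in the sources used here. The depletion of slincRAD itself was not analysed here. Growth medium held newborn calf serum. Both lines were sampled at days -2, 0, +2 and +4, with confluence at day 0 and, from then on, medium with 0.5 mM isobutylmethylxanthine (a phosphodiesterase inhibitor that raises cyclic AMP), 1 µM dexamethasone (a glucocorticoid) and 167 nM insulin, renewed every 2 days. Each line and day gave 1 array, so p-values measure how a difference varied between days or between lines, which may be partly technical.

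The 8 arrays were Agilent one-colour arrays, although the series description names another maker. Their 75th percentile of intensity ran from 760 to 1239, the highest values being those of the day -2 arrays (1171 in sh8 and 1239 in WT), and 64.9% to 81.7% of probes were well above background. The arrays of days -2 and 0 came from one scan and those of days +2 and +4 from another, taken here as a first and a second slide, so that slide and induction cannot be told apart. On both slides WT held array positions 1 and 2 and sh8 positions 3 and 4, so line and position cannot be told apart either. The 7 preadipocyte and fibroblast markers examined, among them Pdgfra, Dlk1 and Col1a1, were well above background on all 8 arrays. Of 8 fat cell markers 7 were well above background at days +2 and +4 in both lines, against 4 to 5 at days -2 and 0, and Lep was so on 0 arrays. Over all probes, 64.9% to 68.5% were well above background on the first slide and 72.4% to 81.7% on the second. The summed level of the fat cell markers was 24.0 in sh8 and 50.3 in WT at day 0. It was 16.9 and 48.0 at day +2, and 26.7 and 70.4 at day +4. Their median log2 level was -4.55 in sh8 and -4.85 in WT at day 0, against -3.41 and -3.04 at day +2. The second slide also carried transcripts of lung epithelium and red blood cells. The summed level of 8 lung markers, in multiples of an array's 75th percentile, was 17.0 and 19.5 in sh8 and 19.1 and 23.1 in WT at days +2 and +4, against 7.59 and 6.90 in sh8 and 10.6 and 9.70 in WT at days -2 and 0. Lamp3, which was bright on both slides, made up most of the sums on the first slide, so they understate the change. The median log2 level of the 8 markers was -4.72 and -5.02 in sh8 and -5.68 and -5.25 in WT at days -2 and 0. At days +2 and +4 it was 0.90 and 0.97 in sh8 and 0.27 and 0.77 in WT. On the second slide 8 of 8 lung markers were well above background, against 4 to 5 of 8 on the first, where Sftpc and Napsa were well above background on 0 arrays. Of 3 red blood cell markers measured, 2 were well above background on the second slide and 1 on the first, with sums of 1.07 to 1.94 against 0.0534 to 0.0815. As these were bulk samples, fewer cells of a type and less RNA per cell cannot be told apart.

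The DNA just before a start site was searched for known stimulus-response elements, which can also lie farther away. RefSeq promoters of 7 members (build GRCm38.p6) were searched on both strands in the 250 bases before each annotated start. Egr1, Fosl1 and Ier2 were not searched. The motifs were the CArG box, which binds serum response factor, TGACGTCA and its core TGACG, read by CREB and ATF proteins, TGACATCA and TGANTCA, bound by AP-1, GCGNGGGCG, bound by EGR proteins, and TATAAA. In the windows below, which run from base -140 to base -1 of the coding strand, capitals mark the motif matches.
Fos, chr12:85473750-85473889, plus strand: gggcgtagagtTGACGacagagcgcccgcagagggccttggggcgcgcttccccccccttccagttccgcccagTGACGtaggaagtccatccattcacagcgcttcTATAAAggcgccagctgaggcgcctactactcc
Jun, chr4:95052223-95052362, minus strand: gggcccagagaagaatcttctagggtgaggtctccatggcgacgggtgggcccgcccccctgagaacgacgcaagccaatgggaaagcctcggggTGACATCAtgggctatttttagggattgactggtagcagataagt
Fosb, chr7:19310046-19310185, minus strand: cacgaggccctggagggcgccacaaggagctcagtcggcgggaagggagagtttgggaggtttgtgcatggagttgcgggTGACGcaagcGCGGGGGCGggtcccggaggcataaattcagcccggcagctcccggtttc
Fosl2, chr5:32136332-32136471, plus strand: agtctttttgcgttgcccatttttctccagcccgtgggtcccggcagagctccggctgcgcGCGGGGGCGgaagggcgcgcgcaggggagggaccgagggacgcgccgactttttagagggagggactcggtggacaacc
Junb, chr8:84978749-84978888, minus strand: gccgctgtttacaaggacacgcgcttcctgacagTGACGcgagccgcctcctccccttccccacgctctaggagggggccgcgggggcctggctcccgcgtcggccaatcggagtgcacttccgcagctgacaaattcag

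Fos held TGACG at bases -129 and -66 and TATAAA at base -33, and Jun held TGACATCA at base -45. A CArG box was found in 2 of the 7 genes searched, Zfp36 and Egr2, and in 1.47% of 32851 promoters of the table. Here and below a member counts if any of its starts matched (11 starts for the 7 genes). The table's shares count each start by itself, so the units differ. The 30 bases around each box, with the box in capitals, show that the Egr2 locus, which has 5 annotated starts, holds 2 of them.
Zfp36, chr7:28379267-28379296, minus strand: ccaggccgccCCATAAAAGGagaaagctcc
Egr2, chr10:67537484-67537513, plus strand: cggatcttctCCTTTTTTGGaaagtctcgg
Egr2, chr10:67537787-67537816, plus strand: gttcctcagtCCATATATGGgcagcgacgt

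TGACG was found in Fos, Fosb, Junb and Egr2 and in 17.8% of all promoters, GCGNGGGCG in Fosb, Fosl2 and Zfp36 and in 4.70%, TGACATCA in Jun and in 2.93%, and TATAAA in Fos and in 12.4%. TGACGTCA (1.55% of all promoters) and TGANTCA (6.75%) matched in 0 of the 7. None of these matches overlapped another. A match describes the letters only, and elements farther upstream, such as the serum response element known for Fos, lie outside this window.

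**Figure D1:**
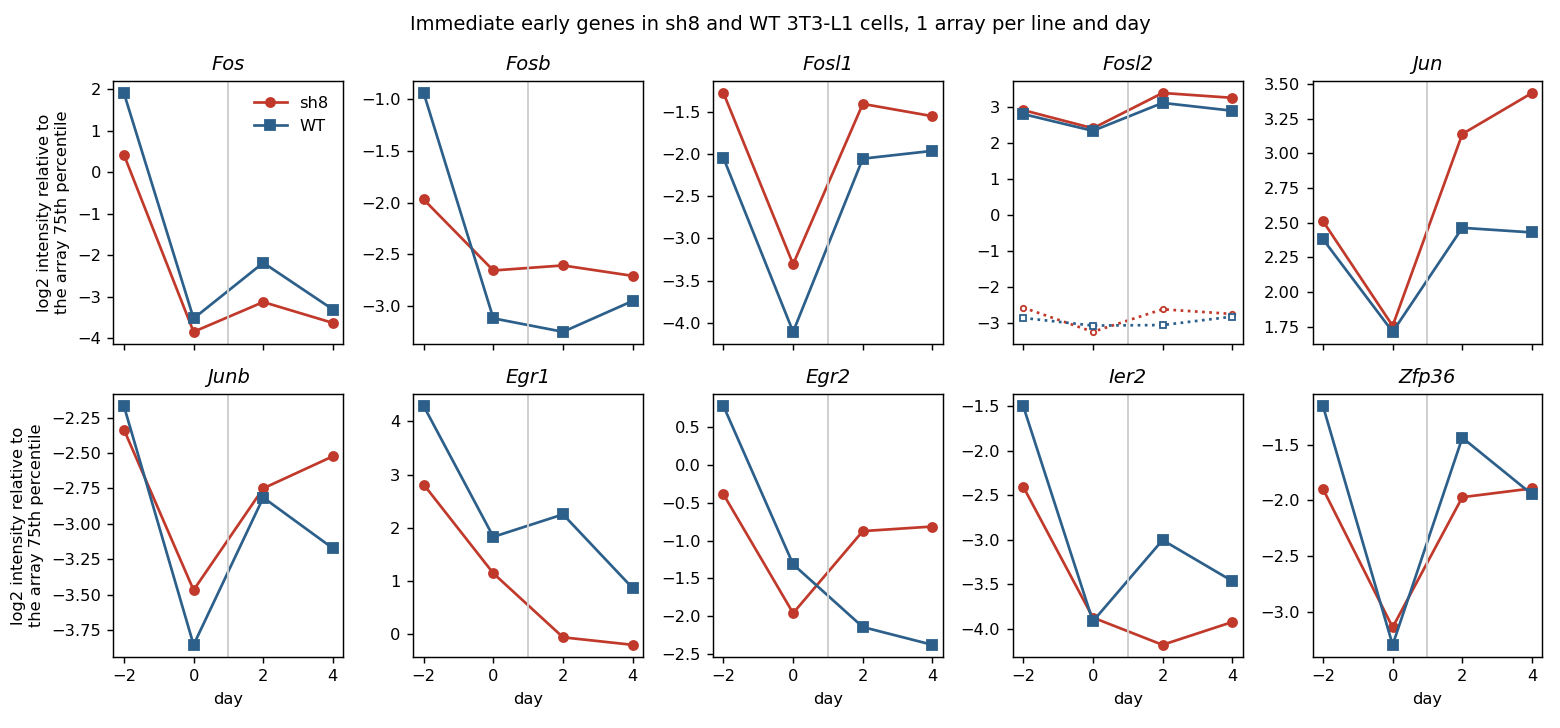
Level of each member by day, in sh8 (red circles) and WT (blue squares), as log2 intensity relative to the array's 75th percentile, 1 array per point. The dotted lines with open symbols are the second, dimmer probe of Fosl2, and the grey line separates the 2 slides. All 10 members were lower at day 0 than at day -2 in both lines.

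The first comparison asked how the members differed as both lines reached confluence, day 0 against day -2, on 1 slide. All 10 members were lower at day 0 in sh8 and in WT, a direction shared by 31.3% of all genes in both lines. At least 2-fold lower were 7 members in sh8, against 5.51% of all genes, and 8 in WT, against 5.45%. The 7 were at least 2-fold lower in both lines, as were 2.85% of all genes. By limma 0 members passed at an adjusted p under 0.05, as did 0% of all genes (lowest adjusted p = 0.0541). At an unadjusted p under 0.05, 8 of 10 members were lower, against 10.2% of all genes lower. The members' median log2 difference was -1.76, and that of all genes was 0.080.

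**Figure D2:**
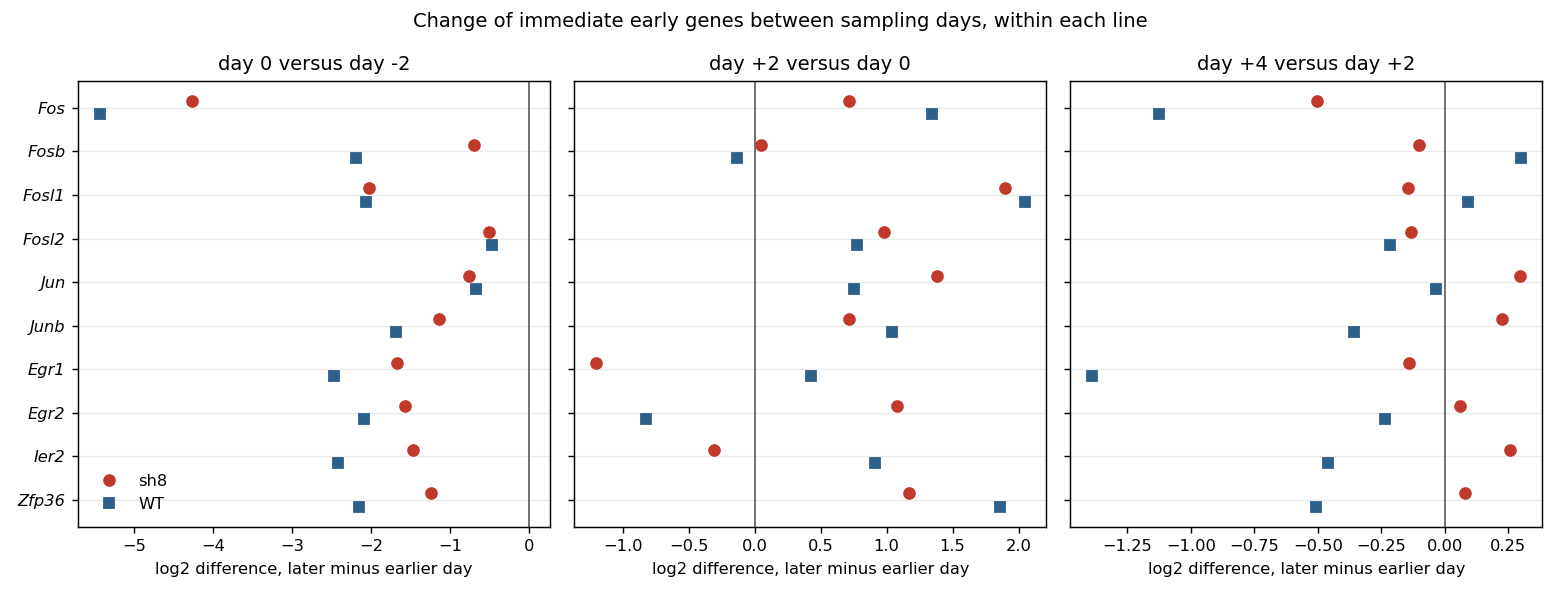
Log2 difference between consecutive sampling days, later minus earlier, for each member within sh8 (red circles) and within WT (blue squares), with 0 marked. From day -2 to day 0 all points lie left of 0, with Fos farthest at -4.27 in sh8 and -5.43 in WT, and from day +2 to day +4 the sh8 points lie 5 on each side of 0 and 8 of 10 WT points lie left of it.

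Among the FOS proteins, Fos had the largest fitted difference between these days of all 26460 genes and transcripts. Its log2 level, relative to the array's 75th percentile, was -3.85 in sh8 and -3.53 in WT at day 0, against 0.42 in sh8 and 1.91 in WT at day -2. At day 0 Fos was 19.3-fold lower in sh8 and 43.2-fold lower in WT. Its day 0 signals were dim, with processed intensities of 65.1 in sh8 and 80.8 in WT, so these folds depend on the background correction. The fitted difference was -4.85 ± 0.33 (SE, adjusted p = 0.0541). With normexp background correction, whose offset compresses dim signals, it was -3.91 and passed (adjusted p = 0.0154). Fosl1, which encodes FRA-1, was at -3.31 in sh8 and -4.11 in WT at day 0, against -1.28 in sh8 and -2.05 in WT at day -2. Its difference was nearly equal in the 2 lines, -2.03 in sh8 and -2.06 in WT (fitted -2.04 ± 0.15, adjusted p = 0.0541, and -1.34 with an adjusted p = 0.0165 by normexp). Fosb was at -2.66 in sh8 and -3.12 in WT at day 0, against -1.97 in sh8 and -0.94 in WT at day -2. Its difference was 4.55-fold in WT and 1.61-fold in sh8. Fosl2, which encodes FRA-2, was at 2.40 in sh8 and 2.33 in WT at day 0, against 2.90 in sh8 and 2.79 in WT at day -2. This was the smallest difference among the members (fitted -0.48 ± 0.14, adjusted p = 0.128).

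Of the JUN partners, Junb was at -3.47 in sh8 and -3.85 in WT at day 0, against -2.33 in sh8 and -2.17 in WT at day -2 (fitted -1.41 ± 0.23, adjusted p = 0.0701, and -0.85 with an adjusted p = 0.0324 by normexp). Jun, the main partner of FOS in AP-1, was at 1.76 in sh8 and 1.71 in WT at day 0, against 2.51 in sh8 and 2.38 in WT at day -2 (fitted -0.71 ± 0.28, adjusted p = 0.2). Both genes were lower at day 0 in sh8 and in WT. Egr1 was at 1.14 in sh8 and 1.83 in WT at day 0, against 2.81 in sh8 and 4.29 in WT at day -2, which is 3.19-fold lower in sh8 and 5.52-fold lower in WT (fitted -2.07 ± 0.40, adjusted p = 0.0815). Egr2 was at -1.96 in sh8 and -1.31 in WT at day 0, against -0.39 in sh8 and 0.77 in WT at day -2. Its fitted difference was -1.83 ± 0.76 (adjusted p = 0.218). Ier2 was at -3.87 in sh8 and -3.91 in WT at day 0, against -2.40 in sh8 and -1.50 in WT at day -2 (fitted -1.94 ± 0.32, adjusted p = 0.0701, and -1.25 with an adjusted p = 0.0301 by normexp). Zfp36 was at -3.14 in sh8 and -3.30 in WT at day 0, against -1.90 in sh8 and -1.15 in WT at day -2 (fitted -1.70 ± 0.27, adjusted p = 0.0697). In WT at day 0 the processed intensities of Fosl1 (54.2), Junb (64.5) and Ier2 (61.9) were dim as well. Their differences therefore also depend on the background correction. For 7 of the 10 members the day -2 level was higher in WT than in sh8, while at day 0 the lines stood within 0.80 of each other for every member. With normexp 7 members passed, all lower, where 13.2% of all genes passed, 66.4% of those higher. When only genes well above background on all 8 arrays were tested, 6 members passed, all lower. There 8.44% of the genes passed, 56.9% of those higher. With a variance prior that followed the mean level 6 members passed, all lower, against 7.34% of all genes, 55.8% of those higher.

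Related early response genes from a list of 39, of which 36 were tested, had a median difference of -0.62 at day 0, with 27 lower, 9 higher and 0 past the threshold. The 2 with the lowest p were Phlda1, a growth factor-induced pleckstrin homology protein (-1.73 ± 0.15, adjusted p = 0.0541), and Ptgs2, the inducible cyclooxygenase (-2.77 ± 0.25, adjusted p = 0.0541). Of 17 AP-1 target genes 12 were lower, with a median of -0.78 and 0 past the threshold, the urokinase receptor Plaur (-1.73) and the cytokine Il6 (-1.26) having the lowest p. The 27 upstream genes, from growth factor receptors through MAP kinases to serum response factor, had a median of 0.030, close to the 0.080 of all genes. Srf itself, which binds the CArG box, had the lowest p among them (-1.35 ± 0.20, adjusted p = 0.0673), and the receptor Pdgfra was 2.14-fold higher (adjusted p = 0.0673). The 12 other AP-1 proteins had a median of -0.00017, with Maf at 1.65 (adjusted p = 0.0546) having the lowest p. Heat shock genes, read as a sign of stress in culture, had a median of -0.18, with 7 of 10 lower. Of these Bag3 (0.35, adjusted p = 0.199) and Hspd1 (-0.39, adjusted p = 0.204) had the lowest p. Among the 5 Egr corepressors and Zfp36 relatives 0 passed, with Zfp36l1 at 0.64 (adjusted p = 0.149) and Zfp36l2 at 0.30 (adjusted p = 0.307).

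The second comparison asked how the members stood after 2 days of the hormone mix, day +2 against day 0. Of the 10 members 3 rose and 0 fell, where 11.9% of all genes were called, 9% higher and 2.89% lower. At an unadjusted p under 0.05, 6 members were higher, against 22% of all genes. The median difference of the members was 0.88, and that of all genes 0.11. With quantile scaling the median of all genes was 0.028, and the share of calls that were higher was 62.1% in place of 75.7%. Fosl1 rose to -1.41 in sh8 and -2.06 in WT at day +2, against -3.31 in sh8 and -4.11 in WT at day 0 (fitted 1.97 ± 0.15, adjusted p = 0.00812). This was 3.72-fold in sh8 and 4.14-fold in WT, and it brought both lines close to their day -2 levels of -1.28 in sh8 and -2.05 in WT. The day 0 signals of Fosl1 were dim, with processed intensities of 95.0 in sh8 and 54.2 in WT, so these folds depend on the background correction. With normexp the fitted difference of Fosl1 was 1.35 (adjusted p = 0.00694). Zfp36 rose to -1.97 in sh8 and -1.44 in WT at day +2, against -3.14 in sh8 and -3.30 in WT at day 0 (1.52 ± 0.27, adjusted p = 0.0339). Fosl2 rose to 3.38 in sh8 and 3.10 in WT at day +2, against 2.40 in sh8 and 2.33 in WT at day 0 (0.88 ± 0.14, adjusted p = 0.0279). Its dimmer second probe was at -2.62 in sh8 and -3.05 in WT at day +2, against -3.24 in sh8 and -3.07 in WT at day 0, and with the mean of both probes Fosl2 no longer passed (adjusted p = 0.0677).

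Jun (1.07 ± 0.28, adjusted p = 0.0733) and Junb (0.88 ± 0.23, adjusted p = 0.0739) were higher at day +2 in both lines without passing. Jun passed with normexp (adjusted p = 0.049) and with a variance prior that followed the mean level (0.0453). Fos, at -3.13 in sh8 and -2.19 in WT at day +2, against -3.85 in sh8 and -3.53 in WT at day 0, did not pass (1.03 ± 0.33, adjusted p = 0.111). Both day +2 values lay far below the level of the same line at day -2, 0.42 in sh8 and 1.91 in WT. Fosb, at -2.61 in sh8 and -3.25 in WT at day +2, differed from its day 0 level by 0.049 in sh8 and -0.13 in WT. Besides Fosb, the lines pointed in opposite directions over this step for Egr1, Ier2 and Egr2, each on 1 pair of arrays a line and with no test of its own. Egr1 was at -1.21 in sh8 and 0.42 in WT, Ier2 at -0.31 in sh8 and 0.91 in WT, and Egr2 at 1.08 in sh8 and -0.83 in WT, as day +2 minus day 0. Their fitted differences were -0.39 ± 0.40 for Egr1, 0.30 ± 0.32 for Ier2 and 0.13 ± 0.76 for Egr2, none past the threshold. The 3 calls were all lost when the 4 arrays of these 2 days were fitted alone, with an adjusted p of 0.0825 for Fosl1, 0.142 for Fosl2 and 0.111 for Zfp36, and 0 genes passed over the whole table (6126 at an unadjusted p under 0.05). Without day +4 only Fosl1 kept its call among these members, Fosl2 being at an adjusted p of 0.0634 and Zfp36 at 0.0689. The lung and red blood cell transcripts described above appeared at the same step, and their part in these results was not tested.

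From day 0 to day +2, 9% of all genes were called higher and 2.89% lower, with a median of 0.11. Of the 36 other early response genes 11 rose and 2 fell at this step, with a median of 0.41. The 4 with the lowest p were Nfil3, a basic leucine zipper repressor (1.73 ± 0.16, adjusted p = 0.0105), the small GTPase Rhob (1.45 ± 0.14, adjusted p = 0.0105), the G protein regulator Rgs2 (3.20 ± 0.34, adjusted p = 0.0125) and the MAP kinase phosphatase Dusp2 (1.83 ± 0.23, adjusted p = 0.0181). Of 17 AP-1 target genes 1 rose and 3 fell. Il6 rose by 2.93 ± 0.14 (adjusted p = 0.00494), while the matrix metalloproteinases Mmp3 (-1.43, adjusted p = 0.0356), Mmp13 (-3.77, adjusted p = 0.0364) and Mmp9 (-1.46, adjusted p = 0.0397) fell. Of 27 upstream genes only Mrtfa passed, an actin-sensing partner of serum response factor (0.62 ± 0.13, adjusted p = 0.0435). Of 12 other AP-1 proteins and 5 Egr corepressors and Zfp36 relatives, 0 passed by limma, with Batf (0.58, adjusted p = 0.113) and Maf (0.50, adjusted p = 0.138) having the lowest p in the first list and Zfp36l3 (-0.31, adjusted p = 0.194) in the second. Of 10 heat shock genes 1 passed, the small heat shock gene Hspb1 (4.48, adjusted p = 0.0105). It was well above background on 4 of 8 arrays, those of the second slide, and entered the test through these arrays alone. The lung and red blood cell transcripts appeared on the same arrays, and their part in this result was not tested.

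Between day +4 and day +2, both on the second slide, 0 members and 0% of all genes passed by limma, with 0 members and 5.44% of all genes at an unadjusted p under 0.05. The members' median was -0.094, and that of all genes 0.077. Within sh8 5 members were lower at day +4, 0 of them at least 2-fold (2.25% of all genes). Within WT 8 were lower, 2 of them at least 2-fold (0.779% of all genes), with a median of -0.30, against 0.072 for all genes. The 2 largest fitted member differences were those of Fos (-0.81 ± 0.33, adjusted p = 0.839) and Egr1 (-0.77 ± 0.40, adjusted p = 0.839). Both came mainly from WT, where Fos was at -3.31 at day +4, against -2.19 at day +2, and Egr1 at 0.86 against 2.25. In sh8 Fos differed by -0.50 and Egr1 by -0.14 over the same step.

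**Figure D3:**
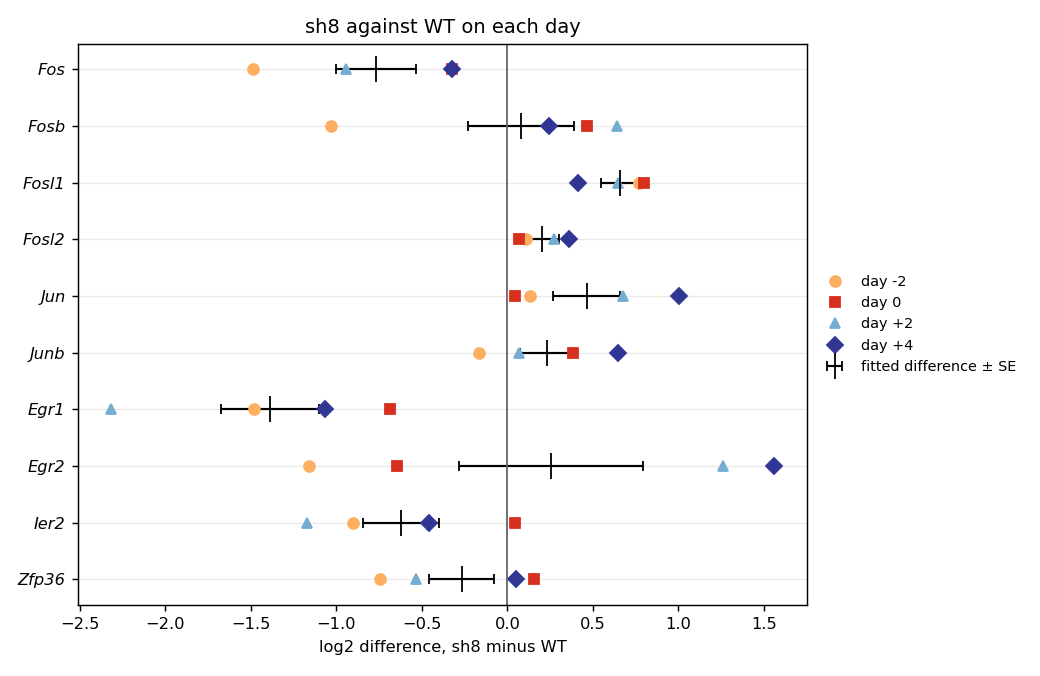
Log2 difference of sh8 minus WT for each member on each day (coloured symbols, 1 pair of arrays each) with the fitted difference over the 4 days and its standard error (black bar and whiskers). Egr1 and Fos lie left of 0 and Fosl1, Fosl2 (brighter probe) and Jun right of 0 on all 4 days, while Egr2 lies left of 0 at days -2 and 0 and right of 0 at days +2 and +4.

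The third comparison set sh8 against WT across the 4 days. Of the 10 members 2 differed between the lines, Egr1 lower and Fosl1 higher in sh8, where 27% of all genes were called, 16.8% higher and 10.3% lower. At an unadjusted p under 0.05 there were 4 members, against 43.8% of all genes, so neither share of the members lay above that of all genes. The median of the members was 0.14 and that of all genes 0.13. With quantile scaling the median of all genes was 0.023 and 50.7% of calls were higher in place of 62%, and 3 members passed, Fos (adjusted p = 0.0374) joining the other 2.

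On single days, members at least 2-fold apart between the lines were most numerous at day -2 and absent at day 0. At day -2, 4 were lower and 0 higher in sh8, where 4.91% of all genes were lower and 6.47% higher by that much. At day 0 there were 0 in either direction (4.95% lower and 7.89% higher among all genes). At day +2, 2 were lower and 1 higher (5.52% and 14.1%), and at day +4, 1 was lower and 2 were higher (5.22% and 9.64%). The median member difference was -0.82 at day -2, where all genes stood at 0.10, and 0.30 at day +4, where they stood at 0.16.

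Egr1 was at 2.81, 1.14, -0.068 and -0.21 in sh8 at days -2, 0, +2 and +4, against 4.29, 1.83, 2.25 and 0.86 in WT. The line difference was -1.48, -0.69, -2.32 and -1.07 on those days, so that sh8 was lower on 4 of 4 days, by 4.98-fold at day +2. The fitted difference was -1.39 ± 0.28, 2.62-fold lower in sh8 (adjusted p = 0.0291). Fosl1 was at -1.28, -3.31, -1.41 and -1.55 in sh8, against -2.05, -4.11, -2.06 and -1.96 in WT. Its line difference was 0.77, 0.80, 0.65 and 0.41, higher in sh8 on 4 of 4 days, and the fitted difference was 0.66 ± 0.11, 1.58-fold higher in sh8 (adjusted p = 0.0205). Both genes kept their direction in each of 14 alternatives, but both calls were lost without any 1 of the 4 days. The adjusted p without a day lay between 0.0654 and 0.0924 for Egr1 and between 0.0531 and 0.0847 for Fosl1. With the slide as the block in place of day the adjusted p was 0.157 and 0.42, as the spread between days within a slide then counts as error.

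Fos was at 0.42, -3.85, -3.13 and -3.64 in sh8 at days -2, 0, +2 and +4, against 1.91, -3.53, -2.19 and -3.31 in WT. It was lower in sh8 on 4 of 4 days, by -1.49 at day -2 and by -0.32 at day 0, and did not pass (-0.77 ± 0.23, adjusted p = 0.0673). It passed with quantile scaling and with the authors' deposited values (adjusted p = 0.0354), which gave nearly the same difference (-0.95 in each). It also passed among genes well above background on all 8 arrays (0.0383) and with a variance prior that followed the mean level (0.0443). Ier2 was at -2.40, -3.87, -4.18 and -3.92 in sh8, against -1.50, -3.91, -3.00 and -3.46 in WT. It was lower in sh8 on 3 of 4 days and level with WT at day 0 (-0.62 ± 0.22, adjusted p = 0.0966). Zfp36 was at -1.90, -3.14, -1.97 and -1.89 in sh8, against -1.15, -3.30, -1.44 and -1.95 in WT, lower at days -2 and +2 and close to WT at the others (-0.27 ± 0.19, adjusted p = 0.328).

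Jun was at 2.51, 1.76, 3.14 and 3.44 in sh8, against 2.38, 1.71, 2.46 and 2.43 in WT. The lines stood within 0.13 of each other on the first slide and differed by 0.68 and 1.01 on the second, 2.01-fold at day +4. Over the 4 days Jun did not pass (0.46 ± 0.20, adjusted p = 0.137). On the second slide alone it did (0.84, adjusted p = 0.0499), where 19.5% of all genes were called. Fosl2 was higher in sh8 on 4 of 4 days, by 0.11, 0.071, 0.27 and 0.36 by its brighter probe (0.20 ± 0.10, adjusted p = 0.178). By the second probe it was lower in sh8 at day 0 and higher on the other 3 days, and in the authors' deposited values of that probe it was lower at days 0 and +4. Junb was at -2.33, -3.47, -2.75 and -2.52 in sh8, against -2.17, -3.85, -2.81 and -3.17 in WT (0.23 ± 0.16, adjusted p = 0.316). Fosb was at -1.97, -2.66, -2.61 and -2.71 in sh8, against -0.94, -3.12, -3.25 and -2.95 in WT. It was 2.05-fold lower in sh8 at day -2 and higher on the other 3 days, with a fitted difference of 0.080 ± 0.31 whose sign turned in 5 of 14 alternatives. Over all 4 days 3 members, Fosl2 by its brighter probe, were higher in sh8 throughout and 2 lower throughout, where 32.3% and 20.4% of all genes were.

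Egr2 alone among the 10 members was below WT in sh8 at days -2 and 0 and above WT at days +2 and +4. Among all genes 6.69% turned over in this direction and 4.66% in the opposite direction. Egr2 was at -0.39, -1.96, -0.88 and -0.82 in sh8 at days -2, 0, +2 and +4, against 0.77, -1.31, -2.14 and -2.37 in WT. It was 2.24-fold and 1.56-fold lower in sh8 at days -2 and 0, and 2.40-fold and 2.95-fold higher at days +2 and +4. The difference over all days was 0.25 ± 0.54 (adjusted p = 0.736). On the second slide alone Egr2 was called higher (1.41, adjusted p = 0.034), where 19.5% of all genes were called. The interaction of line with induction, after minus before, was 2.31 ± 0.26 for Egr2 (unadjusted p = 0.00107, adjusted p = 0.121). By this test 0 members and 0% of all genes passed, with Egr2 and Jun (0.75 ± 0.18, adjusted p = 0.177) at an unadjusted p under 0.05, against 19.9% of all genes. Egr2 passed with normexp (2.00, adjusted p = 0.0167), among genes well above background on all 8 arrays (0.0213) and with a variance prior that followed the mean level (0.0172). Those settings called 4.75%, 5.65% and 4.42% of the genes tested.

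Beside the list counts that follow, 16.8% of all genes were called higher and 10.3% lower in sh8, with a median of 0.13. Among the 36 other early response genes 7 were higher and 1 lower in sh8, with a median of 0.25. The 4 with the lowest p were Dusp2 (1.54 ± 0.17, adjusted p = 0.0117), Ptgs2 (1.36 ± 0.18, adjusted p = 0.0146), the nuclear protein Csrnp1 (0.86 ± 0.15, adjusted p = 0.0234) and the antiproliferative protein Btg2 (0.89 ± 0.16, adjusted p = 0.0242), all higher. Of 17 AP-1 target genes 8 were higher and 1 lower, with a median of 0.37. Il6 was lower (-1.66 ± 0.10, adjusted p = 0.00832), and the osteopontin gene Spp1 (1.49), the metalloproteinase Mmp10 (0.86) and the cyclin Ccnd1 (0.72) were higher. Of 27 upstream genes 1 was higher and 3 were lower, with a median of -0.052. Srf was lower in sh8 (-0.78 ± 0.14, adjusted p = 0.0237), as was the receptor Pdgfrb (-0.65, adjusted p = 0.0331), while the kinase Rps6ka3, which acts below ERK, was higher (0.60, adjusted p = 0.0439). The EGR corepressor Nab2 (0.49 ± 0.13, adjusted p = 0.0496) and Zfp36l3 (0.46 ± 0.10, adjusted p = 0.0299) were higher. Of 12 other AP-1 proteins Batf was higher (0.87) and Maf lower (-0.89). Of 10 heat shock genes 0 passed by limma, Dnajb1 (-0.30, adjusted p = 0.08) having the lowest p. Macrophage markers differed between the lines as well, 5 of 7 measured being higher and 0 lower in sh8, with sums of 6.74 to 8.09 in sh8 and 5.14 to 6.15 in WT. Itgam made up most of each sum. Lyz2, well above background on 4 of 8 arrays, also differed between the slides. It was at -5.78 in sh8 and -6.61 in WT at day 0, against -3.34 and -3.64 at day +2. Fat cell markers were lower in sh8 in 3 of 7 tested and higher in 0, with sums of at most 26.7 in sh8 and at least 36.4 in WT. Their part in the members' differences was not tested.

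**Figure D4:**
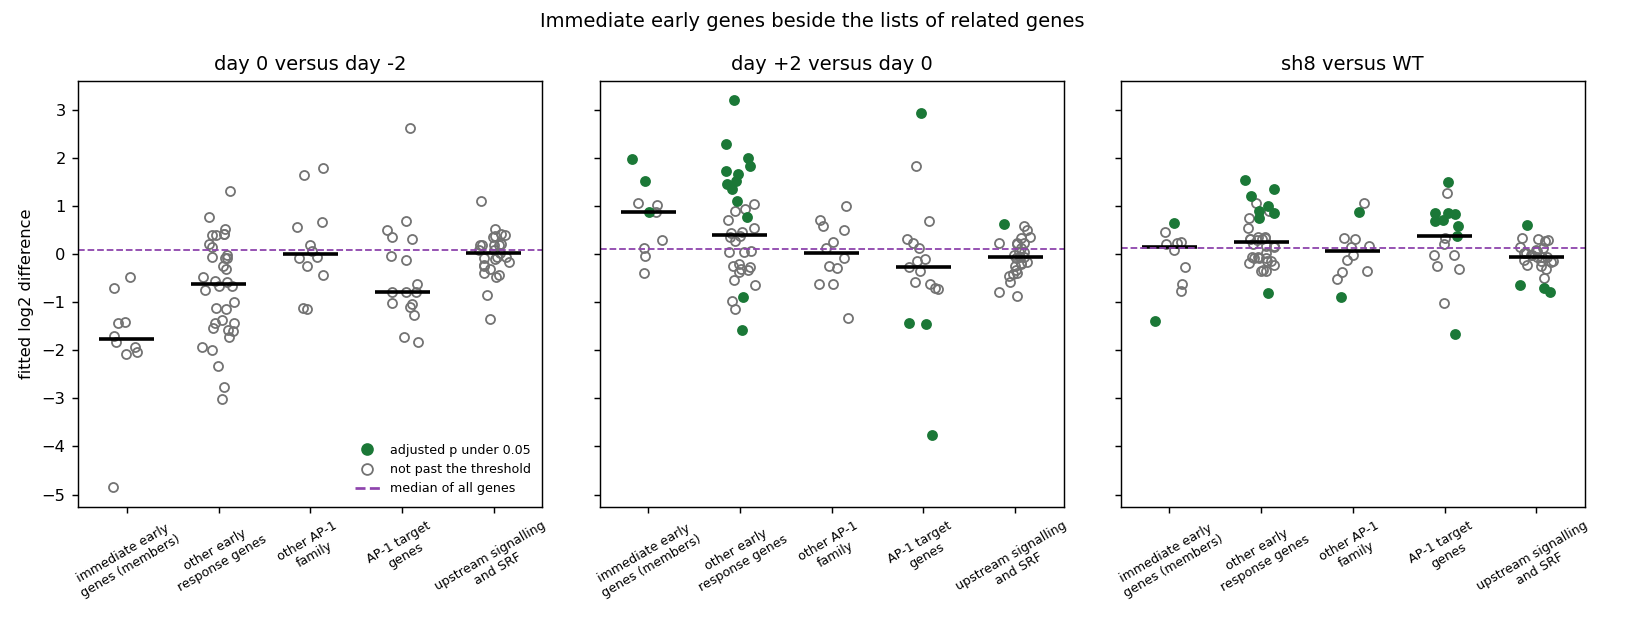
Fitted log2 difference of each member and of each gene of 4 related lists in 3 comparisons, with filled green points past an adjusted p of 0.05 and open points not past it. Black bars are list medians and the dashed line is the median of all genes, and the members' median lies at -1.76, 0.88 and 0.14 from left to right.

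Across the 8 arrays the members fell into different shapes. Fos followed Ier2 (Pearson r = 0.96 over 8 arrays), Fosb (0.87) and Egr1 (0.86) most closely, with their high points at day -2. Fosl2 followed Jun (0.94) and Fosl1 (0.87), which returned after induction to their day -2 level or above it. Jun and Egr1 were at -0.46. These values describe 8 arrays that share 2 lines, 4 days and 2 slides. Outside the members, among 13773 named genes well above background on all 8 arrays, the 5 closest to the members' mean profile were Fbxo46 (r = 0.97), Dna2 (0.97), Phlda1 (0.96), Cherp (0.95) and Mpp6 (0.94). Fbxo46 stayed between -1.55 and -1.34, whereas Phlda1 ranged from 0.74 to 2.65. The 5 closest to Fos were Cherp (0.99), Plcxd2 (0.97), Zyx (0.97), Baz1a (0.96) and Phlda1 (0.96). Cherp stayed between 2.92 and 3.39, whereas Fos ranged from -3.85 to 1.91. Zyx, which encodes the focal adhesion protein zyxin, was at 4.59, 3.72, 3.59 and 3.57 in sh8 at days -2, 0, +2 and +4, against 5.05, 3.91, 3.97 and 3.85 in WT.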

How the data were processed

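RNA from sh8 and WT 3T3-L1 cells at 4 days was measured on 8 Agilent arrays. The deposited scanner files came from Agilent Feature Extraction 11.0.1.1, per the file headers, giving spot intensities and flags (other values of 0 or 1) that were not scaled between arrays. The authors also deposited log2 values of the same arrays, with medians of 6.39, in the same direction, whose steps are not given in the sources used here. Each column correlated best with its own array (r of 0.994 to 1.00 across probes). The members' differences in these values were nearly those of quantile scaling.

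Of 44397 spots 1377 controls were left out, repeat spots were averaged to 39429 probes, and 46 with an outlier flag were dropped. Through RefSeq accessions 27234 probes received a symbol. Levels are log2 processed intensity minus the array's 75th percentile. Genes well above background on at least 2 of 8 arrays were kept, with the brightest probe per gene. Differences were tested with limma 3.58.1 in R 4.3.3 (lmFit, eBayes; line plus day as a factor, 3 residual degrees of freedom, 2 with the interaction), with Benjamini-Hochberg adjusted p-values over all 26460 genes, with 0.05 as the threshold. The procedure was tested on simulated data. The members and lists were chosen with earlier results of these data known. From each list up to 4 genes past the threshold with the lowest p are named, or up to 2 if none passed, and likeness is Pearson's r. Some genes that this rule names are not reported here. Normexp used the median spot signal, since the files hold no mean signal.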

Additional observations from a re-analysis of the deposited data

Results flagged for a closer look

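Egr2 was marked because the difference between the lines pointed one way on both days before induction and the other way on both days after it. The sh8 minus WT difference was -1.16 and -0.64 at days -2 and 0, and 1.26 and 1.56 at days +2 and +4. The change of the difference was 2.31 on the log2 scale (limma, adjusted p = 0.121). Among all 26460 genes and transcripts 6.69% turned over in the same direction and 4.66% in the opposite one. The days before and after induction lie on different slides, so slide and induction cannot be told apart.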

How the results depend on the processing

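No paired analysis was possible because all arrays carry replicate number 1, other than the pairing by day that the model for sh8 against WT already holds as a term. No called member changed sign under any alternative. For sh8 against WT the main count was 7157 genes and 2 members. Leaving out day -2 gave 4206 and leaving out day 0 gave 79. Leaving out day +2 gave 0 (9444 unadjusted), leaving out day +4 gave 0 (8651 unadjusted), and the arrays of the first slide gave 0 (8389 unadjusted). In each of these, and with the slide as the block, 0 members passed. The arrays of the second slide gave 5164 genes (19.5%) and 2 members, Jun and Egr2. For day 0 against day -2 0 genes and 0 members passed (6715 unadjusted). There normexp called 3488 genes (13.2%) and 7 members, and the authors' deposited values 10 and 1 (Fos, adjusted p = 0.0483). The filter on all 8 arrays called 1669 (8.44%) and 6, and eBayes with a trend 1942 (7.34%) and 6. For day +2 against day 0, with 3146 genes and 3 members, quantile scaling called 1959 genes, the authors' values 1964, the fit without day +4 1043 with 1 member, and the arrays of these 2 days alone 0 with 0. For day +4 against day +2, with 0 genes (1439 unadjusted), quantile scaling and the authors' values each called 1. For the interaction 0 genes and 0 members passed (5264 unadjusted). There normexp called 1256 genes (4.75%) and 1 member, the filter on all 8 arrays 1118 (5.65%) and 1, and eBayes with a trend 1170 (4.42%) and 1, the member being Egr2. Fewer arrays leave fewer degrees of freedom, and the cause of the other changes was not tested. The number of arrays limits the precision.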
